A study of Mus musculus with 15 samples.

Results

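The genes of the Wnt signaling pathway were examined in RNA-seq of mouse mammary tumors and glands. They were chosen by symbol and comprised the Wnt ligands present under the rule, the Frizzled receptors with the co-receptors Lrp5 and Lrp6, the R-spondins with Lgr4, Lgr5 and Lgr6, the secreted antagonists of the Sfrp and Dkk families with Wif1 and Notum, and 8 feedback targets and nuclear factors. In all, 55 of the 51826 annotated genes were members, of which 18 were ligands, 12 receptors, 7 R-spondins or Lgr receptors, 10 secreted antagonists and 8 feedback targets and factors (Axin1, Axin2, Lef1, Tcf7, Nkd1, Nkd2, Znrf3 and Rnf43).

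Wnt proteins are secreted, lipid-modified ligands that bind a Frizzled receptor together with the co-receptor Lrp5 or Lrp6, and in the canonical branch this spares β-catenin from degradation so that it can act with Tcf and Lef factors on target genes. Several targets feed back on the signal: Axin2 is a scaffold of the β-catenin destruction complex, Nkd1 and Nkd2 act on Dishevelled, Notum removes the lipid from the ligand, and Rnf43 and Znrf3 are ubiquitin ligases that take Frizzled off the cell surface unless an R-spondin bound to an Lgr receptor clears them. In the mammary gland Wnt4 and Rspo1 act as local signals downstream of ovarian hormones and sustain ductal side branching and the basal progenitor cells.

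The series holds 15 libraries of 13 mice. Trim24COE mice carry a transgene with a floxed stop cassette before FLAG-tagged mouse Trim24, opened in mammary epithelium by MMTV-driven Cre, and all come from 1 integration. Their tumors were labelled carcinosarcoma (metaplastic tumors with a sarcoma-like component, mice 64, 567 and 897) or carcinoma (mice 89, 273_5 and 3956). Control glands were of virgin mice that carried the MMTV-Cre transgene alone (mice 133, 392, 417_3 and 517_3), so that Cre was shared by the Trim24COE and control groups, and both were of the FVB strain. The non-TRIM24 tumors (219, FVB001 and FVB002) arose spontaneously in mice whose genotype the labels give as unknown, and are labelled carcinoma. The study says that they came from FVB mice or from mice of a mixed background that includes FVB. Pathologists differed on the class of tumors 89, 567 and 3956, and the study lists a call based on the RNA-seq itself beside their readings, so the class of a tumor is not fully independent of its expression.

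Values are given in TPM, a share of the RNA of a library scaled by transcript length, so that a level can be compared between genes. They sum to the same total in every library, and the sequencing depth is therefore unknown. Trim24 was at 10.6 to 14.5 TPM in carcinosarcomas, 13.9 to 24.1 TPM in carcinomas, 14.5 to 22.4 TPM in control glands and 5.34 to 10.04 TPM in non-TRIM24 tumors. Every tumor labelled Trim24COE was thus above every non-TRIM24 tumor in Trim24 RNA, but the nearest values were 10.6 and 10.04 TPM. These libraries were of different batches, and no batch term was used here. The carcinosarcomas did not exceed the lowest gland, and the carcinomas overlapped the glands. The study also examined the transgene by other assays, which were not analysed here, and every direction below is between groups as labelled. Control gland 133 and tumor 3956 were each sequenced again in the second batch, which also held the 3 non-TRIM24 tumors. Over the members at 1 TPM or more, the median difference between a first and a repeat library was 0.17 on the log2 scale for mouse 133 and 0.28 for mouse 3956, and the largest was in Lef1, at 2.73 TPM and 0.13 TPM in the 2 libraries of gland 133.

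Cell content differed between the libraries of a group. The summed adipocyte markers reached 33825 and 45532 TPM in glands 133 and 392 against 1842 and 2026 TPM in glands 417_3 and 517_3, whose luminal epithelial markers were higher (4782 and 5053 TPM against 895 and 1562 TPM). Gland 392 also held 1814 TPM of skeletal muscle markers. The tumors labelled FVB001 and FVB002 resembled the fat-rich glands in this, with 65464 and 32571 TPM of adipocyte markers, and FVB001 had 559 TPM of luminal markers. Carcinosarcomas had 315 to 1414 TPM of luminal and 2089 to 8055 TPM of fibroblast markers, and carcinomas 2996 to 7348 TPM and 313 to 3029 TPM. Basal and myoepithelial markers were at 4228 and 4311 TPM in glands 417_3 and 517_3 against 315 and 412 TPM in 133 and 392. They were at 129 to 588 TPM in carcinosarcomas and at 3538, 146 and 177 TPM in carcinomas 89, 273_5 and 3956. Endothelial markers were at 292 to 477 TPM in glands, 169 to 370 TPM in carcinosarcomas and 64 to 193 TPM in carcinomas. All markers of these lists were detected in every group. In whole tissue, fewer cells of a type and less RNA per cell cannot be told apart, and the part of cell content in the differences that follow was not tested except where a value without the fat-rich or fat-poor libraries is given.

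Of the 55 members, 19 were at 1 TPM or more in all 13 mice, 20 had a mean of 10 TPM or more, and 6 (Wnt1, Wnt3, Wnt9b, Rspo2, Dkk1 and Dkk4) stayed below 1 TPM in every mouse. By role, 8 of 12 receptors were at 1 TPM or more in every mouse, against 4 of 18 ligands, 3 of 10 antagonists, 1 of 7 R-spondins and Lgr receptors and 3 of 8 feedback targets and factors, as the heat map of all members shows.

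**Figure D1:**
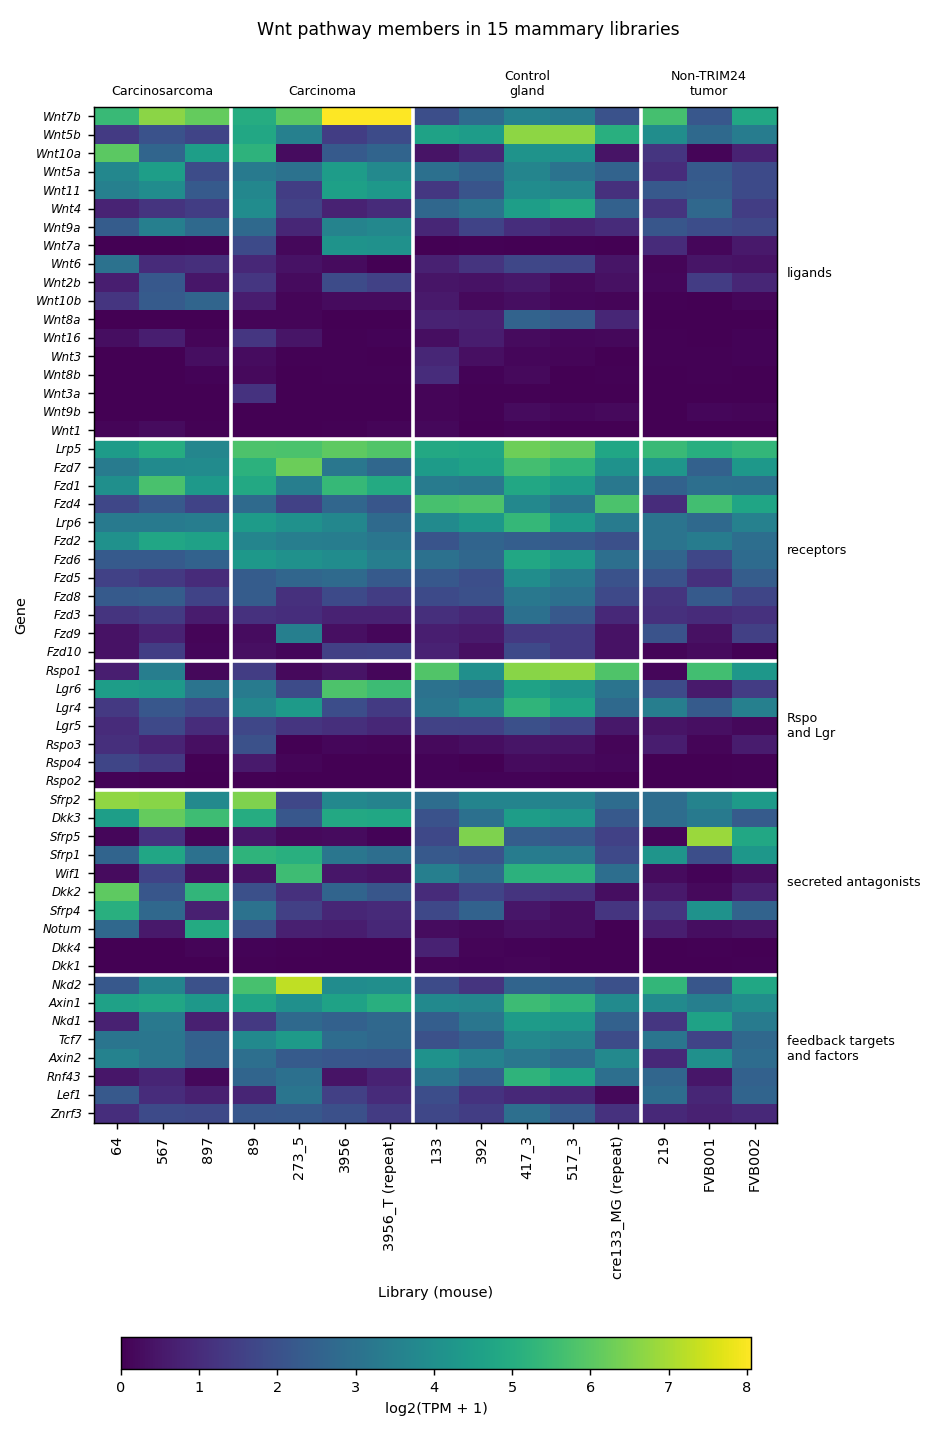
Heat map of log2(TPM + 1) of the 55 members (rows, grouped by role and ordered by mean level) in 15 libraries (columns, grouped by label, with the 2 repeat libraries marked). Wnt7b is bright in the 6 Trim24COE tumors, Rspo1 in the 4 control glands, and the lower rows of the ligands stay dark throughout.

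Members were tested with limma on log2(TPM + 1) over all genes, and a change was called at an adjusted p under 0.05. In the 6 tumors labelled Trim24COE against the 4 control glands, 38 members were tested, 3 were higher and 6 lower; 7.96% of all 15196 genes tested were called higher and 9.13% lower. The 3 carcinosarcomas alone against the glands had 6 of 39 members higher and 8 lower, beside 9.83% and 13.1% of all genes. The 3 carcinomas alone had 2 of 39 higher and 1 lower, beside 1.58% and 1.92% of all genes. The shares of members were at or somewhat above those of all genes, and this excess was not tested. These 3 comparisons share the control glands, and 17 of the 55 members were too low to enter the first of them.

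Promoter sequence from the RefSeq-based table for build GRCm38.p6 was examined for 35 of the 55 members. The remaining members, Wnt8a and Fzd8 among them, had no window in this search, so the counts below do not cover them. The 250 bases before each start were searched on both strands for the core letters bound by Tcf and Lef factors, which are CTTTG followed by A or T in each of the next 2 places, and a window counted once even where matches overlapped. Of 43 member windows 5 held a match (11.6%), against 14.8% of all 32851 windows, so the members did not stand out. Among the 14 called members with a window, Wnt5b and Fzd7 held a match, and both were lower in carcinosarcomas than in glands. These 2 windows are shown with those of Rspo1, the member called lower in both tumor classes, and Nkd2, the feedback target called higher in carcinomas. The matches are in capitals, all sequences read 5′ to 3′ on the strand of the gene, and Rspo1 and Nkd2 hold none in these windows. The Wnt5b window is that of 1 of its 3 listed starts.

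Rspo1, chr4:124986180-124986429, plus strand: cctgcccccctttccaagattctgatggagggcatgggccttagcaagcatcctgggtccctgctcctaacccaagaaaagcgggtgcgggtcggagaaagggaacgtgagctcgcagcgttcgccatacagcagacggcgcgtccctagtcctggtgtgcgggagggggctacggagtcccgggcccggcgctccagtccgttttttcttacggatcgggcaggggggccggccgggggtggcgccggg

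Wnt5b, chr6:119449387-119449636, minus strand: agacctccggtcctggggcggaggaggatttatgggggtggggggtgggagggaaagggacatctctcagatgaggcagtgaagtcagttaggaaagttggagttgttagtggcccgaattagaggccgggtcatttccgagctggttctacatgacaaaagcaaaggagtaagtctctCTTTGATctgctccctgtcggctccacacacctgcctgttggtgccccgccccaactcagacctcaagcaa

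Fzd7, chr1:59481897-59482146, plus strand: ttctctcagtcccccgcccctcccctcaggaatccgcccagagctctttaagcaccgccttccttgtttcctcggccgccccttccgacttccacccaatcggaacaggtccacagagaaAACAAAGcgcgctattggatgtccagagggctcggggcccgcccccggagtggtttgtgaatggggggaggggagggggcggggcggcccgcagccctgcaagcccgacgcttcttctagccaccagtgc

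Nkd2, chr13:73847632-73847881, minus strand: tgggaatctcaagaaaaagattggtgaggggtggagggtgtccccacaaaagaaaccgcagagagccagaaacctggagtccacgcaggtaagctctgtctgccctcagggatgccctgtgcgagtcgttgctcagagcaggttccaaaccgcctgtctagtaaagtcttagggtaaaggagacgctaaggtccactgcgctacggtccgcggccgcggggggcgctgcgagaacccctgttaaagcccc

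The windows of Rspo1 and Fzd7 were rich in CG pairs, with 22 and 17 in 250 bases, against 14 for Nkd2, 7 for Wnt5b and a median of 6 over all windows. No match says only that these letters are not in the window.

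Among the ligands, the tumors and the glands differed in which gene led. Wnt7b was the most abundant ligand in 4 of the 6 Trim24COE tumors, whereas Wnt5b led in all 4 glands. The lead of Wnt7b was not particular to the Trim24COE label. It also led in non-TRIM24 tumors 219 and FVB002 (65.5% and 56.4% of ligand TPM), whereas Wnt5b led in the fat-rich FVB001 (20.3%). Wnt7b (chr15:85535437-85582473, minus strand), which can signal through β-catenin, was at 42.8, 100.3 and 70.3 TPM in carcinosarcomas 64, 567 and 897 and at 30.9, 64.3 and 265 TPM in carcinomas 89, 273_5 and 3956. The 4 glands had 2.85, 6.02, 10.9 and 9.39 TPM of Wnt7b, and no gland reached the lowest tumor. The repeat library of tumor 3956 gave 261 TPM. Wnt7b was higher in the tumors by 3.30 on the log2 scale (SE 0.54, 95% interval 2.11 to 4.49, limma adjusted p = 0.00288, 6 of 6 tumors), and the exact permutation test gave p = 0.00952, the smallest that 6 against 4 mice allow. The difference was 3.16 in carcinosarcomas (adjusted p = 0.00357) and 3.43 in carcinomas (adjusted p = 0.0442). It was called in all 18 alternatives for the 6 tumors. In the carcinomas alone, the call was lost when any 1 of 6 mice other than 89 was left out (133, 273_5, 392, 3956, 417_3 or 517_3), with adjusted p from 0.0755 to 0.0975.

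Wnt5b (chr6:119432531-119544347, minus strand), a ligand mostly tied to the branch without β-catenin, showed the reverse. It was at 24.1, 21.1, 101 and 102 TPM in glands 133, 392, 417_3 and 517_3 and at 1.57, 3.07 and 2.11 TPM in the carcinosarcomas. Carcinomas 89, 273_5 and 3956 had 27.15, 10.5 and 1.77 TPM, so that tumor 89 lay among the glands. Wnt5b fell by 3.15 in the tumors (SE 0.75, limma adjusted p = 0.0167) and by 3.94 in carcinosarcomas (SE 0.62, adjusted p = 0.00488). In the 6 tumors the call was lost without gland 417_3 or gland 517_3 (adjusted p = 0.0512 and 0.052) and without both of these fat-poor glands (−2.09, adjusted p = 0.1305), whereas in the carcinosarcomas it held with each mouse left out. As a share of all ligand TPM, Wnt5b made up 42.9% to 55.8% in glands and 1.08% to 1.85% in carcinosarcomas, and Wnt7b 5.14% to 12.3% and 29.4% to 60.7%.

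**Figure D2:**
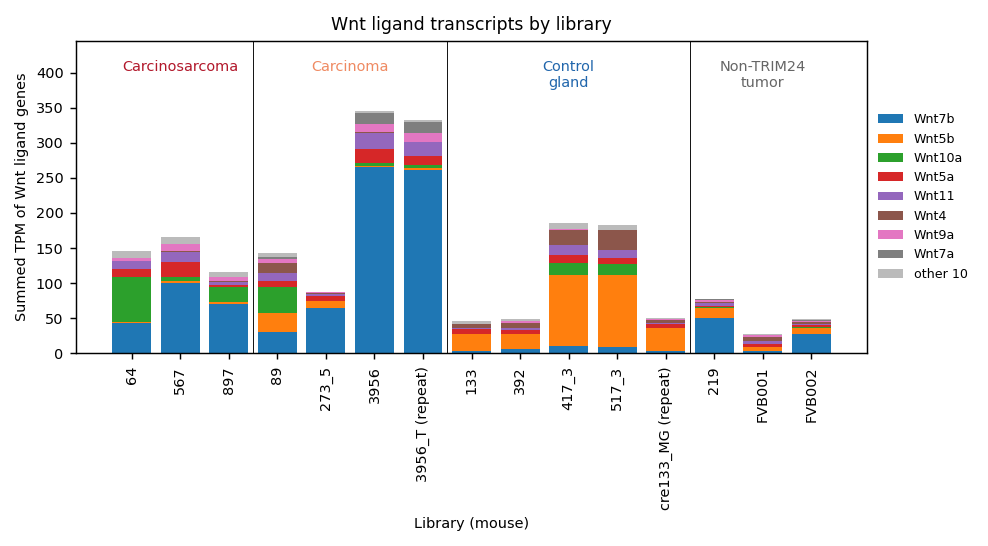
Summed TPM of the 18 Wnt ligand genes per library (stacked bars, one color per gene for the 8 with the highest mean and gray for the other 10). Wnt7b fills most of the bar in tumors 567, 897, 273_5 and 3956 and in non-TRIM24 tumors 219 and FVB002. Wnt10a leads in tumors 64 and 89, and Wnt5b leads in every control gland and in FVB001.

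Wnt4, the ligand downstream of progesterone, was at 5.47, 7.63, 21.9 and 28.4 TPM in glands 133, 392, 417_3 and 517_3. It was at 0.73, 1.32 and 1.78 TPM in carcinosarcomas 64, 567 and 897 and at 13.97, 2.01 and 0.7 TPM in carcinomas 89, 273_5 and 3956. Tumor 89 alone among the 6 overlapped the glands. Wnt4 fell by 2.18 in the tumors (limma adjusted p = 0.0398) and by 2.64 in the carcinosarcomas (adjusted p = 0.0145). The first call was lost when any 1 mouse except 133 or 89 was left out (adjusted p up to 0.1125), and the second without tumor 567 or 64 (adjusted p = 0.0521 and 0.0716).

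A pair of less abundant ligands rose. Wnt9a was at 4.08, 10.1 and 5.73 TPM in carcinosarcomas 64, 567 and 897, at 5.72, 0.82 and 11.2 TPM in carcinomas 89, 273_5 and 3956, and at 0.83, 2.08, 1.09 and 0.76 TPM in the glands. Only carcinoma 273_5 lay in the range of the glands. Wnt9a was higher by 1.76 in carcinosarcomas (SE 0.36, limma adjusted p = 0.012), while its call in all 6 tumors (1.54, adjusted p = 0.0492) was kept only when tumor 273_5 was the mouse left out. Wnt10b, which restrains fat cell formation, was at 1.35, 3.93 and 5.23 TPM in carcinosarcomas, at 0.56 TPM or less in carcinomas and at 0.48 TPM or less in glands. It was higher by 1.75 in carcinosarcomas than in glands (SE 0.36, adjusted p = 0.0121), a call that was lost without tumor 567 (adjusted p = 0.0563). Wnt10b passed the filter on low values only through the carcinosarcomas, the group where it was high, so this call is not independent of the filter. In the comparison of carcinosarcomas with carcinomas its difference of 1.72 had an adjusted p of 0.167. The no-filter alternative, which tests more genes, took Wnt9a to 0.0547 and Wnt10b to 0.0727.

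Wnt10a, the third ligand by mean level, was not called in any of the 6 comparisons. It was at 64.0, 5.17 and 22.1 TPM in carcinosarcomas 64, 567 and 897, at 35.7, 0.21 and 3.85 TPM in carcinomas 89, 273_5 and 3956, and at 0.35, 0.8, 16.6 and 16.3 TPM in the glands. Both glands with little fat had Wnt10a, and the fat-rich glands had 0.8 TPM or less. Its difference in carcinosarcomas was 2.01 (limma adjusted p = 0.246), and without the fat-poor glands it was 3.75 and was called (adjusted p = 0.0296). Wnt10a lies 6193 bases from Wnt6 on chromosome 1, and both were highest in tumor 64, where Wnt6 had 7.19 TPM. Wnt10b lies 11706 bases from Wnt1 on chromosome 15, and Wnt1 did not exceed 0.17 TPM in any first library.

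Wnt7a and Wnt8a are outside the rule for naming and are given because of their values. Wnt7a, the closest relative of Wnt7b, was at 16.4 TPM in carcinoma 3956 (15.9 TPM in its repeat), at 2.47 TPM in carcinoma 89 and at 1 TPM or less in every other mouse. Wnt8a was at 0.7, 0.65, 4.86 and 3.95 TPM in glands 133, 392, 417_3 and 517_3, and was listed at 0 in all 3 carcinosarcomas, in carcinoma 3956 and in the 3 non-TRIM24 tumors, with 0.08 TPM in carcinomas 89 and 273_5. It did not pass the filter on low values in the comparisons with Trim24COE tumors. Without that filter, Wnt8a was called lower in the 6 tumors (limma adjusted p = 0.0453), but as it was picked for its values this call carries no weight of its own.

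The remaining ligands were lower or changed less. Wnt5a and Wnt11, ligands mostly tied to cell movement and polarity, were present in all 13 mice at 1.03 to 22.1 TPM and 1.48 to 22.8 TPM, and the tumors labelled Trim24COE overlapped the glands in both. The non-TRIM24 tumors, at 1.03 to 3.87 TPM, lay below every gland and carcinoma in Wnt5a. The differences of Wnt5a and Wnt11 in the 6 tumors were 0.44 (95% interval −0.64 to 1.51) and 0.50 (interval −0.99 to 1.98). Wnt2b reached 3.61 TPM in tumor 567, Wnt16 1.42 TPM and Wnt3a 1.26 TPM in tumor 89, and Wnt8b 1.05 TPM in gland 133 (0.03 TPM in its repeat library). Wnt3a lies 16175 bases from Wnt9a on chromosome 11, but in the 13 mice only tumor 89 had more than 0.08 TPM of it.

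Among the receptors, Fzd2 rose and Fzd4 fell in the tumors, while Lrp5, Lrp6 and most Frizzled genes did not pass the test. Fzd2 (chr11:102604396-102608058, plus strand) was at 15.97, 26.4 and 23.3 TPM in carcinosarcomas 64, 567 and 897, at 11.6, 9.98 and 9.55 TPM in carcinomas 89, 273_5 and 3956, and at 3.26, 5.06, 4.25 and 3.83 TPM in the glands. The 3 groups did not overlap, and the non-TRIM24 tumors (7.57, 9.43 and 6.44 TPM) lay between the glands and the carcinosarcomas. Fzd2 was higher by 1.66 in the 6 tumors (SE 0.32, limma adjusted p = 0.00692, exact permutation p = 0.00952) and by 2.15 in carcinosarcomas (SE 0.29, adjusted p = 0.00256), and both calls held with each mouse left out. With the adipocyte covariate the call in the 6 tumors was lost (1.53, adjusted p = 0.0642). In carcinomas the difference was 1.16 (95% interval 0.52 to 1.81, adjusted p = 0.064), which was called with median ratio scaling (adjusted p = 0.0443) and with all first-batch groups in one fit (adjusted p = 0.0316). The summed fibroblast markers were also higher in carcinosarcomas than in glands (2089 to 8055 TPM against 627 to 1836 TPM). Their mean log2 levels overlapped (5.88 to 7.55 against 4.65 to 6.17), and the markers Dpt and Pi16 had lower means in carcinosarcomas. The part of these cells was not tested.

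Fzd4, which also serves as the receptor for Norrin in vessels, was at 51.05, 54.4, 12.5 and 7.68 TPM in glands 133, 392, 417_3 and 517_3 and at 1.94 to 5.91 TPM in the 6 tumors. No tumor reached the lowest gland, but the glands themselves split by fat content, and the fat-rich tumors FVB001 and FVB002 had 47.7 and 25.6 TPM against 1.03 TPM in tumor 219. Fzd4 fell by 2.50 in the tumors (SE 0.55, limma adjusted p = 0.0115, exact permutation p = 0.00952) and by 2.74 in the carcinosarcomas (adjusted p = 0.0252). With the adipocyte markers as a covariate the fall was 1.15 (adjusted p = 0.128) in the tumors and 0.89 (adjusted p = 0.084) in the carcinosarcomas, and without the fat-rich glands the value was −1.34 (adjusted p = 0.0658) in the tumors. The carcinosarcoma call was also lost without tumor 567, 64 or 897 (adjusted p from 0.0641 to 0.0969).

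Fzd7, a receptor of basal mammary progenitors, was at 9.13, 13.5 and 13.8 TPM in carcinosarcomas 64, 567 and 897 and at 20.5, 24.1, 48.7 and 36.6 TPM in glands 133, 392, 417_3 and 517_3. Carcinomas spread widely, at 35.0, 74.7 and 8.16 TPM. Fzd7 fell by 1.29 in carcinosarcomas against glands (limma adjusted p = 0.0331), a call lost without any 1 of 417_3, 517_3, 567, 64 and 897 (adjusted p from 0.0568 to 0.1375). Without the fat-poor glands it was −0.84 (adjusted p = 0.0634).

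**Figure D3:**
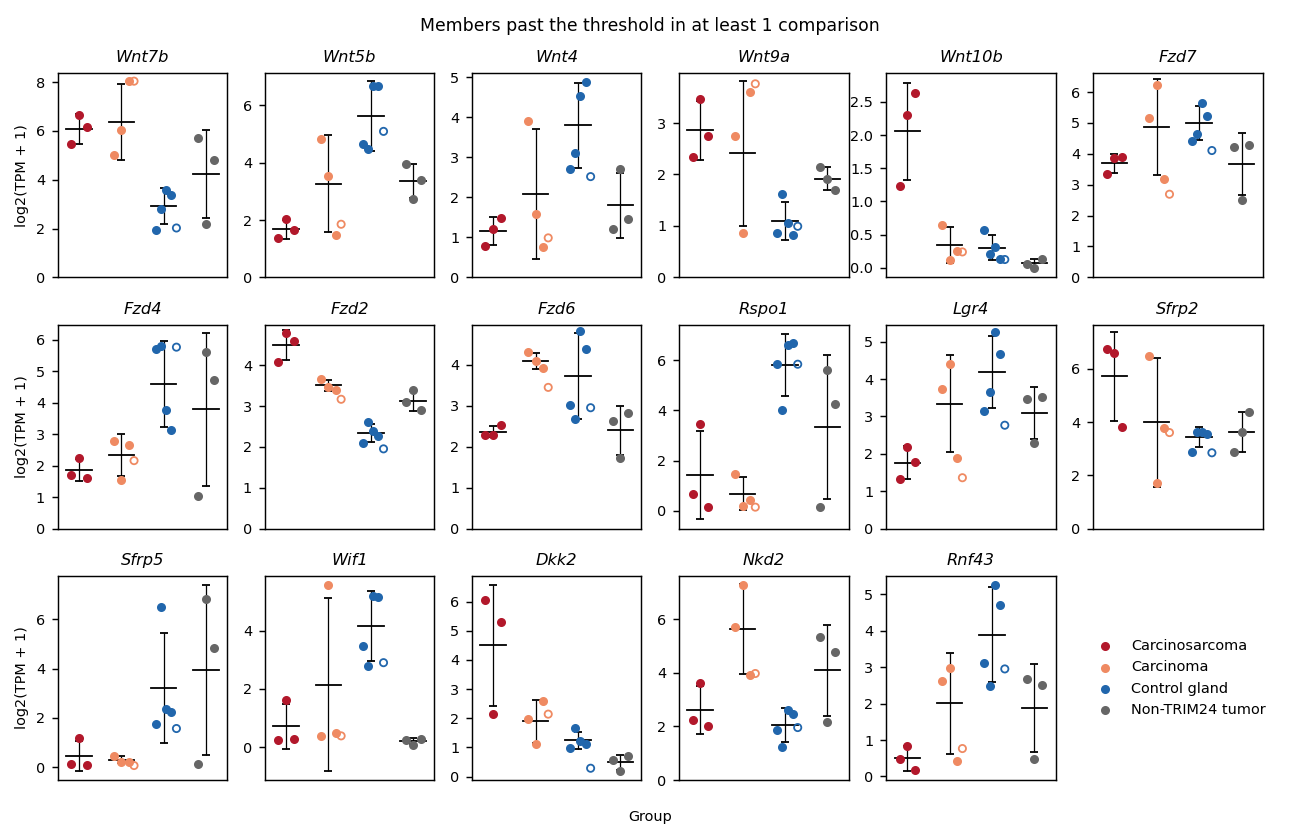
Values of log2(TPM + 1) for the 17 members called in at least 1 comparison, by group (filled points are mice, open points the 2 repeat libraries, bars the mean with SD over mice). Rspo1 and Wnt7b separate the 6 Trim24COE tumors from the 4 glands, and Fzd6 separates the carcinosarcomas from the carcinomas.

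Fzd6 was the only member called between the tumor classes. Of 35 members tested in carcinosarcomas against carcinomas, 0 were higher and 1 was lower, beside 0.113% and 0.585% of all 14193 genes. Fzd6, a receptor of the planar polarity branch, was at 3.89, 3.89 and 4.74 TPM in carcinosarcomas 64, 567 and 897 and at 18.8, 15.9 and 14.1 TPM in carcinomas 89, 273_5 and 3956. The classes did not overlap, and the glands with little fat (27.4 and 19.9 TPM) were above both fat-rich glands (7.08 and 5.43 TPM). Fzd6 was lower in carcinosarcomas by 1.73 (the log2 difference was −1.73, SE 0.26, 95% interval −2.35 to −1.12, limma adjusted p = 0.0449); 3 against 3 mice allow no exact permutation p below 0.1. The call was lost when any 1 mouse but 3956 was left out (273_5, 567, 64, 89 or 897; adjusted p from 0.0886 to 0.269), and under every other setting tried except a smaller pseudocount (adjusted p from 0.0567 to 0.207). Luminal epithelial markers were also lower in the carcinosarcomas, at 315 to 1414 TPM against 2996 to 7348 TPM, and their part was not tested.

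Lrp5, the most abundant receptor gene, and Fzd1 were not called in any comparison. Lrp5 was at 20.4, 30.8 and 11.97 TPM in carcinosarcomas, 54.4, 54.3 and 65.2 TPM in carcinomas and 28.2, 26.3, 77.4 and 67.2 TPM in glands, so that the 2 tumor classes did not overlap. Its difference between the classes was −1.51 (95% interval −2.34 to −0.67, limma adjusted p = 0.156). Fzd1 was at 15.2, 52.2 and 18.9 TPM in carcinosarcomas, 28.3, 9.87 and 41.1 TPM in carcinomas and 9.13, 8.24, 27.6 and 21.0 TPM in glands, with wide overlap. Lrp6, the other co-receptor, ranged from 5.74 to 39.9 TPM over the 13 mice, and its difference in carcinosarcomas was −1.13 (adjusted p = 0.0583). Fzd5, at 0.98 to 14.3 TPM, had −1.55 there (adjusted p = 0.0581). Without the fat-rich glands both were called lower in carcinosarcomas, with values of −1.53 for Lrp6 and −2.32 for Fzd5, and so was Lrp5 (−1.82). Fzd3 (0.54 to 6.8 TPM) and Fzd8 (1.18 to 8.26 TPM) were highest in the fat-poor glands, Fzd10 did not exceed 2.46 TPM, and Fzd9 was at 10.2 TPM in carcinoma 273_5 and at 3.2 TPM or less elsewhere.

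Rspo1 showed the largest fall of any member in the tumors. This R-spondin (chr4:124986430-125009099, plus strand), a secreted enhancer of Wnt signaling, was at 57.4, 15.2, 97.4 and 103 TPM in glands 133, 392, 417_3 and 517_3. It was at 0.6, 9.91 and 0.12 TPM in carcinosarcomas 64, 567 and 897 and at 1.74, 0.15 and 0.34 TPM in carcinomas 89, 273_5 and 3956. The 6 tumors and the 4 glands did not overlap, although tumor 567 came near gland 392. Rspo1 fell by 4.74 in the tumors (SE 0.71, 95% interval −6.30 to −3.18, limma adjusted p = 0.00177, exact permutation p = 0.00952), by 4.37 in carcinosarcomas (adjusted p = 0.0133) and by 5.11 in carcinomas (adjusted p = 0.0151). In the 6 tumors it was called in all 18 alternatives, with the fat-rich or the fat-poor glands left out among them (−5.60 and −3.88). Rspo1 passed the filter on low values through the glands, where it was high, but its call in the 6 tumors was kept with no filter. The call in carcinosarcomas was lost without tumor 64 or 897 (adjusted p = 0.0667 and 0.0532), and that in carcinomas without tumor 3956 (adjusted p = 0.0562). Among the non-TRIM24 tumors Rspo1 was at 0.1 TPM in tumor 219 and at 48.1 and 18.0 TPM in the fat-rich FVB001 and FVB002. Of the other R-spondins, Rspo3 did not exceed 2.96 TPM and Rspo4 2.24 TPM in any mouse.

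The Lgr receptors that bind R-spondins differed from each other. Lgr4 was at 1.52, 3.58 and 2.42 TPM in carcinosarcomas 64, 567 and 897, at 12.3, 20.1 and 2.72 TPM in carcinomas 89, 273_5 and 3956, and at 7.92, 11.5, 37.3 and 24.6 TPM in the glands. The carcinosarcomas lay below every gland. Lgr4 fell by 2.42 in them (SE 0.53, limma adjusted p = 0.0156), a call lost without tumor 64 or 897 (adjusted p = 0.0753 and 0.0523). Lgr6 was at 21.6, 19.4 and 7.49 TPM in carcinosarcomas, 9.24, 2.58 and 54.4 TPM in carcinomas and 7.2, 6.08, 23.8 and 17.1 TPM in glands, without a call. Lgr5, the intestinal stem cell marker, was between 0.99 and 2.93 TPM in the first libraries of these 10 mice. Its repeat values were lower, at 0.44 TPM in gland 133 (first library 1.99 TPM) and 0.85 TPM in tumor 3956 (first library 1.13 TPM).

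The secreted antagonists moved in both directions in the carcinosarcomas. Dkk2, which binds Lrp5 and Lrp6, was at 64.9, 3.44 and 38.2 TPM in carcinosarcomas 64, 567 and 897, at 2.9, 1.18 and 5.09 TPM in carcinomas 89, 273_5 and 3956 and at 0.98 to 2.15 TPM in glands. All 3 carcinosarcomas were above the glands, 567 by little. Dkk2 rose by 3.25 (SE 0.83, limma adjusted p = 0.0267), a call lost without any 1 of 133, 417_3, 517_3, 64 and 897 (adjusted p from 0.0513 to 0.105). Sfrp2, a Wnt-binding protein of stromal cells, was at 105, 96.8 and 12.9 TPM in carcinosarcomas, at 89.4, 2.25 and 12.6 TPM in carcinomas and at 6.32, 11.5, 11.4 and 10.9 TPM in glands. It rose by 2.28 in carcinosarcomas (SE 0.68, adjusted p = 0.0453), and the call was kept only when tumor 897, the lowest of the 3, was the mouse left out (adjusted p otherwise from 0.0661 to 0.18). Dkk3, the second antagonist by mean level, was at 21.96, 70.4 and 45.5 TPM in carcinosarcomas and 3.06, 6.87, 21.4 and 17.7 TPM in glands, a difference of 1.98 that missed the threshold (adjusted p = 0.0609). It was called with median ratio scaling (2.20, adjusted p = 0.0297), without gland 417_3 (2.33, adjusted p = 0.0444) and without both fat-poor glands (2.91, adjusted p = 0.0133), and in the 6 tumors without tumor 273_5 (1.79, adjusted p = 0.0403). Carcinomas 89, 273_5 and 3956 had 30.7, 3.6 and 28.15 TPM of Dkk3. Sfrp1 was at 2.86 to 36.4 TPM over the 13 mice and was 1.75 higher in carcinomas than in glands, short of the threshold (adjusted p = 0.14), and Sfrp4 reached 32.6 TPM in tumor 64 and 16.3 TPM in FVB001.

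Wif1 and Sfrp5 fell. Wif1, a secreted Wnt-binding inhibitor, was at 10.2, 5.96, 35.4 and 34.9 TPM in glands 133, 392, 417_3 and 517_3 and at 0.18, 2.07 and 0.23 TPM in carcinosarcomas 64, 567 and 897. Carcinomas 89 and 3956 had 0.32 and 0.4 TPM, but carcinoma 273_5 had 46.2 TPM, more than any gland, and the 3 non-TRIM24 tumors had 0.06 to 0.22 TPM. Wif1 fell by 3.44 in carcinosarcomas (SE 0.68, limma adjusted p = 0.0107). The call was lost in 2 of 15 settings (adjusted p up to 0.0608), 1 of them without tumor 64 (adjusted p = 0.0556). Wif1 passed the filter on low values there through the glands, where it was high, so this call is not independent of the filter. In the 6 tumors the difference was −2.73 (adjusted p = 0.0826), and without tumor 273_5 it was −3.55 (adjusted p = 0.00259).

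Sfrp5, known as an adipose-derived Wnt inhibitor, was at 2.33, 90.01, 4.17 and 3.75 TPM in glands 133, 392, 417_3 and 517_3 and at 0.07 to 1.25 TPM in the 6 tumors. The groups did not overlap, but gland 392 stood far above the other glands, and FVB001 and FVB002 had 113 and 27.65 TPM against 0.09 TPM in tumor 219. Sfrp5 fell by 2.83 in the tumors (SE 0.78, limma adjusted p = 0.03, exact permutation p = 0.00952), and by 1.73 without gland 392, when the call held. It passed the filter on low values through the glands, where it was high, so this call is not independent of the filter. The call was lost without tumor 3956, 64 or 897 (adjusted p from 0.0509 to 0.0582) and with the adipocyte covariate (−1.78, adjusted p = 0.276). Notum, also outside the rule for naming and picked for its values, was at 5.58, 0.47 and 29.7 TPM in carcinosarcomas 64, 567 and 897, at 3.03, 0.65 and 0.58 TPM in carcinomas and at 0.12 to 0.27 TPM in glands. Its difference between carcinosarcomas and carcinomas was 1.61 (adjusted p = 0.503). Against the glands it did not pass the filter for limma. The 6 tumors and the 4 glands did not overlap, with a difference of 1.67, but as Notum was picked for its values no p-value is given for this. Without tumor 567 Notum passed the filter only through tumors 64 and 897, where it was high. The call that followed in carcinosarcomas therefore carries no weight.

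**Figure D4:**
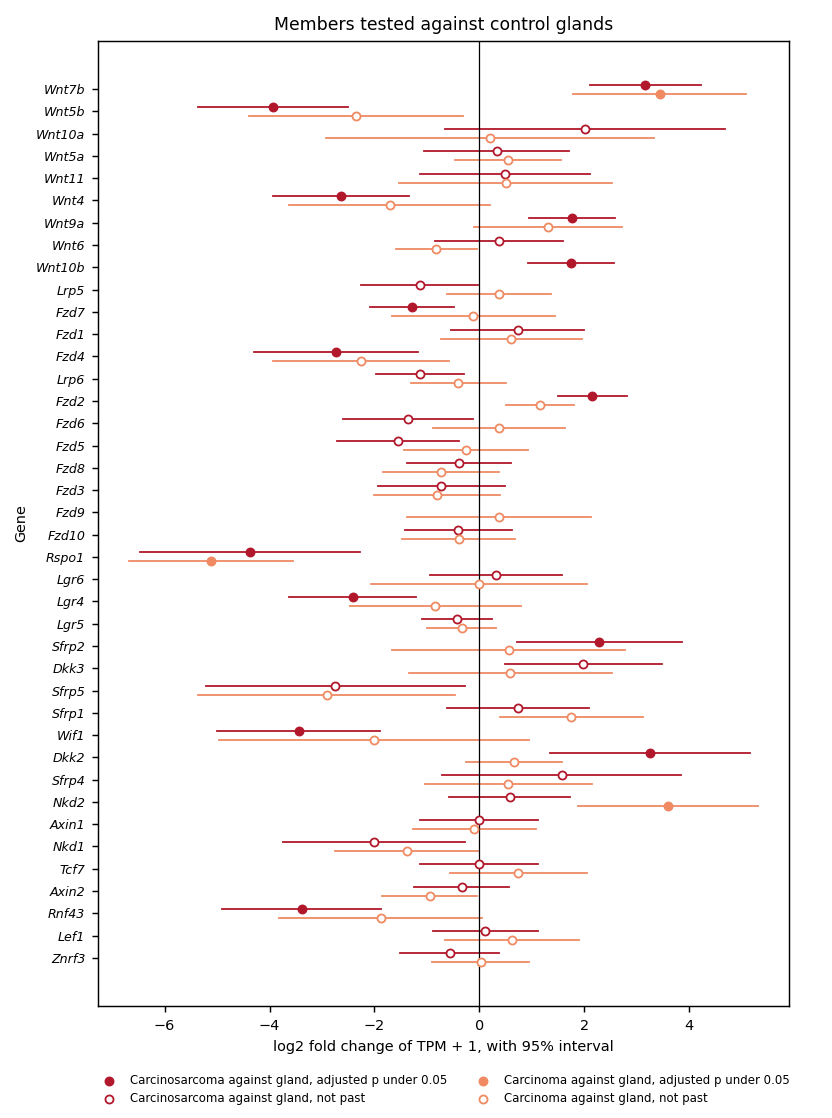
Differences in log2(TPM + 1) against the 4 control glands with 95% intervals for the members tested in carcinosarcomas (red) or carcinomas (orange), ordered by role. Filled points passed an adjusted p of 0.05: 14 in carcinosarcomas and 3 in carcinomas, with Wnt7b and Rspo1 filled in both.

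Of the 8 feedback targets and factors, Nkd2 rose in carcinomas and Rnf43 fell in carcinosarcomas. Nkd2 (chr13:73818534-73847631, minus strand) was at 51.2, 153 and 14.03 TPM in carcinomas 89, 273_5 and 3956, at 3.68, 11.35 and 2.99 TPM in carcinosarcomas 64, 567 and 897 and at 2.6, 1.34, 5.05 and 4.56 TPM in glands. Every carcinoma was above every carcinosarcoma and gland, and non-TRIM24 tumors 219 and FVB002 also had 39.4 and 26.6 TPM. Nkd2 rose by 3.59 in carcinomas against glands (SE 0.75, limma adjusted p = 0.043), and the call was kept only when tumor 3956 was the mouse left out (adjusted p otherwise from 0.077 to 0.1045). Between the tumor classes the difference was −3.01 (95% interval −5.04 to −0.99, adjusted p = 0.211).

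Rnf43 was at 7.67, 4.62, 37.1 and 25.0 TPM in glands 133, 392, 417_3 and 517_3, at 0.4, 0.8 and 0.12 TPM in carcinosarcomas 64, 567 and 897 and at 5.16, 6.88 and 0.33 TPM in carcinomas 89, 273_5 and 3956. The carcinosarcomas and carcinoma 3956 lay below every gland. Rnf43 fell by 3.39 in carcinosarcomas (SE 0.66, limma adjusted p = 0.0103), which held with each mouse left out, and by 2.64 in the 6 tumors (adjusted p = 0.0271), a call lost without any 1 of 3956, 417_3, 517_3, 567, 64 and 897 (adjusted p from 0.0506 to 0.0791). Without the fat-poor glands the value in the 6 tumors was −1.55 (adjusted p = 0.2). Rnf43 passed the filter on low values through the glands, where it was high, but its call in carcinosarcomas was kept with no filter. Beside carcinoma 3956, the mice lowest in Rnf43 were the 3 carcinosarcomas and FVB001, which were also the 4 lowest in the mean log2 level of the luminal markers, and the part of this was not tested.

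Axin1, Axin2, Lef1, Tcf7, Nkd1 and Znrf3 did not pass the test in any of the 6 comparisons. Axin2, Lef1 and Tcf7 are outside the rule for naming and were added with their values known. Axin2, a widely used readout of canonical signaling, was at 10.9, 7.9 and 4.84 TPM in carcinosarcomas 64, 567 and 897, at 6.71, 3.93 and 3.57 TPM in carcinomas 89, 273_5 and 3956 and at 16.2, 11.01, 8.17 and 6.17 TPM in the glands. The groups overlapped. The difference of Axin2 between the 6 tumors and the glands was −0.65 (95% interval −1.41 to 0.12, limma adjusted p = 0.224). Lef1 and Tcf7, nuclear partners of β-catenin, differed by 0.36 (interval −0.67 to 1.40) and 0.37 (interval −0.64 to 1.37). Axin1 was at 23.2, 26.25 and 18.8 TPM in carcinosarcomas, 25.3, 15.4 and 24.0 TPM in carcinomas and 13.1, 11.9, 44.7 and 36.4 TPM in glands, a difference of −0.05 in the 6 tumors (interval −0.87 to 0.77). Nkd1 was at 0.67, 8.63 and 0.62 TPM in carcinosarcomas, 1.5, 5.73 and 4.62 TPM in carcinomas and 4.3, 7.91, 20.6 and 18.7 TPM in glands, a difference of −1.70 in the 6 tumors (adjusted p = 0.0752). Znrf3 was at 0.68 to 6.65 TPM over the 13 mice.

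**Figure D5:**
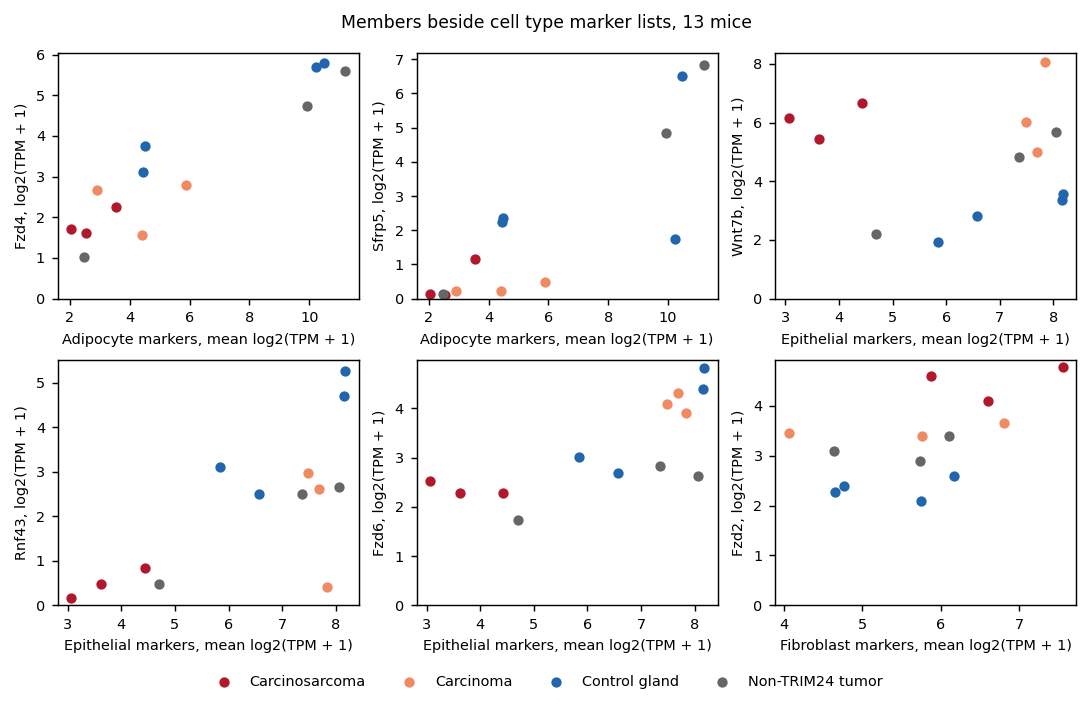
Log2(TPM + 1) of 6 members (vertical axes) beside the mean log2(TPM + 1) of a list of cell type markers (horizontal axes) in 13 mice, colored by group. Fzd4 is high in the 4 mice with the most adipocyte marker RNA. Rnf43 and Fzd6 are low in the carcinosarcomas, which have the lowest mean log2 level of epithelial markers. Wnt7b is high in the carcinosarcomas, whose mean log2 epithelial levels lie below those of any gland. By summed TPM of these markers, tumor 897 (1414 TPM) lies above gland 133 (895 TPM), and the part of cell content was not tested.

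The non-TRIM24 tumors gave no calls among the members. Against the glands, 43 members were tested and 0 were called by limma, with 8 at an unadjusted p under 0.05, beside 0.203% of all 16775 genes called higher and 0.507% called lower. Carcinomas against non-TRIM24 tumors also gave 0 of 43, with 7 at an unadjusted p under 0.05, beside 0% and 0.0298% of all genes. These fits held all 15 libraries with batch as a term, and the estimate of batch rested on the 2 mice sequenced in both batches. Strain, which may differ in the non-TRIM24 group, was not a term. Wnt7b was at 50.6, 3.58 and 27.2 TPM in tumors 219, FVB001 and FVB002, so that the fat-rich FVB001 lay among the glands. Its difference from the carcinomas was 2.17 (adjusted p = 0.236). Wif1 and Wnt5b had the values −3.53 (adjusted p = 0.129) and −2.61 (adjusted p = 0.114) against the glands. Without the fat-rich glands, an alternative chosen after the marker levels were seen, 11 of 46 members were called in the non-TRIM24 tumors, beside 3350 of all 17118 genes, and without the fat-poor glands 0 of 45 were called. The values of Wnt5b, Wif1 and Rnf43 without the fat-rich glands were −3.62, −4.80 and −3.37.

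Genes of the pathway outside the members were taken from 5 lists. In the list of co-receptors and Wnt secretion, 9 of 10 genes were tested and 0 were called by limma in any comparison, with 0 to 2 at an unadjusted p under 0.05. In the list of the destruction complex and nuclear factors, 18 genes were tested. In the 6 tumors 0 rose and 2 fell, beside 7.96% of all genes called higher and 9.13% called lower. The 2 that fell were Tcf7l2 and Tcf7l1, nuclear factors that can repress targets in the absence of β-catenin. No list count was tested against these shares. Tcf7l2 was at 31.5 to 69.3 TPM in the 4 glands and 4.74 to 13.25 TPM in the 6 tumors, and fell by 2.29 (SE 0.32, adjusted p = 0.00127). It also fell in the non-TRIM24 tumors, by 2.10 (adjusted p = 0.014). Of 7 planar polarity genes tested in the 6 tumors 2 fell, beside the same shares, Celsr2 by 3.09 (adjusted p = 0.0226) and Daam2 by 1.25 (adjusted p = 0.00438).

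Of 6 other secreted modulators tested in the 6 tumors, 1 rose and 1 fell, beside the same 7.96% and 9.13% of all genes. Dkkl1, a Dkk-like secreted protein, was at 19.4, 26.0, 35.7 and 42.55 TPM in the glands and at 0.52 to 2.05 TPM in the tumors, a fall of 3.95 (SE 0.31, limma adjusted p = 0.0001), and it fell by 3.39 in the non-TRIM24 tumors (adjusted p = 0.00371). Cthrc1, a matrix protein of activated fibroblasts that can bind Wnt and Frizzled, was at 184, 151.5 and 178 TPM in carcinosarcomas 64, 567 and 897, at 52.6, 18.2 and 26.5 TPM in carcinomas 89, 273_5 and 3956 and at 3.28 to 10.79 TPM in glands. The 3 groups did not overlap, and Cthrc1 was higher in carcinosarcomas than in carcinomas by 2.49 (SE 0.39, adjusted p = 0.0496). That call lay at the threshold and was lost with no filter on low values, where no gene was called between the classes. Of 8 other target genes tested, Wisp1, a matricellular target, rose by 2.60 in the tumors (adjusted p = 0.0275) and Cd44, a cell adhesion receptor, by 2.46 (adjusted p = 0.0173), while 0 fell. The lists' median differences in the 6 tumors ran from −0.85 to 0.36, beside −0.33 over the 38 members tested and −0.04 over all genes. In carcinosarcomas against glands the median over all genes was −0.12, in the non-TRIM24 tumors against glands −0.27 and in carcinomas against non-TRIM24 tumors 0.27, and changes there are to be read relative to these shifts.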

How the data were processed

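RNA-seq of 15 libraries of 13 mice was read from the deposited tables of TPM, which the authors made with STAR and RSEM against mouse build GRCm38 and GENCODE annotation after trimming with Trimmomatic, per the study's methods. The labels' processing notes also name TopHat, Cufflinks and mm10. TPM keeps no depth, so no counting error is given. Members and lists were chosen with earlier results of these data known.

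Log2(TPM + 1) was fitted with limma 3.58.1 in R 4.3.3 (moderated with an intensity trend) over all genes at 1 TPM or more in at least as many libraries as the smaller group of a comparison, with Benjamini-Hochberg adjusted p under 0.05 as a call. A member could pass this filter through the group where it was high, and such a call is not independent of the filter. Comparisons without non-TRIM24 tumors used the first-batch libraries of the groups compared. The others used all 15 libraries, with batch as a term and a correlation of 0.951 between libraries of a mouse. Exact permutation tests (two-sided, unadjusted, 55 members a comparison, scipy 1.17.1 in Python 3.11.15) compared single members. A member was named when called in any comparison or among the 3 highest of its role. Replicates are separate mice. Coordinates are GENCODE's for GRCm38. The alternatives were a pseudocount of 0.1, no filter, median ratio scaling, an adipocyte covariate, other sample sets and each mouse left out. Settings without the fat-rich or fat-poor libraries were chosen after seeing the data. The fits were tested on simulated data.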

Additional observations from a re-analysis of the deposited data

Results flagged for a closer look

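In a group of 4 or more mice, the highest or lowest mouse was set against the gap to its nearest neighbor (Dixon's criterion at 95%). Of 48 members and groups examined this way 5 stood apart, and chance alone gives about 1 in 20, or 2.4. Gland 133 had 6.32 TPM of Sfrp2, the other glands at least 10.87 TPM. Gland 392 had 90.01 TPM of Sfrp5 against at most 4.17 TPM in the other glands. Tumor 567 had 1.25 TPM of Sfrp5 against at most 0.39 TPM in the other tumors labelled Trim24COE. Tumor 273_5 had 46.17 TPM of Wif1 against at most 2.07 TPM. Tumor 89 had 13.97 TPM of Wnt4 against at most 2.01 TPM. The effect of Fzd6 against the shared glands differed between the classes by −1.73 on the log2 scale (carcinosarcomas minus carcinomas, limma adjusted p = 0.0449).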

How the results depend on the processing

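Of 428 values of the called members under the alternatives, 300 kept their direction and call, 128 kept the direction and lost the call, and 0 reversed. Wnt7b and Rspo1 in the 6 tumors and Fzd2, Rnf43, Wnt5b and Wnt7b in the carcinosarcomas, 6 of 27 calls, held under every setting tried. With 1 mouse left out, members called ran from 5 to 11 in the 6 tumors (main value 9), 6 to 16 in carcinosarcomas (14), 1 to 2 in carcinomas (3), 0 to 3 between the classes (1) and 0 to 0 in both comparisons with non-TRIM24 tumors (0). The share over all genes is not given for these runs with 1 mouse left out. In the 6 tumors, 3 members were called with the adipocyte covariate and 5 without the fat-poor glands. Calls over all genes also moved with the settings, as listed below for several of them. The member counts in this section are therefore not results about the members alone. In carcinosarcomas, 5 were called with no filter and 22 without the fat-rich glands, where 10 further members were lower. In carcinomas 0 were called with no filter. Between the classes 0 were called with no filter, with median ratio scaling, with all first-batch groups in one fit and with the repeat libraries. Against glands, the non-TRIM24 tumors had 1 with median ratio scaling, 4 with no batch term and 11 without the fat-rich glands, and carcinomas had 1 against non-TRIM24 tumors with no batch term. Over all genes, calls fell from 2597 to 1149 with the adipocyte covariate in the 6 tumors and, with no filter, from 3511 to 1623 in carcinosarcomas, 542 to 46 in carcinomas, 99 to 0 between the classes and 119 to 48 in non-TRIM24 tumors against glands. Without the fat-rich glands they were 5837 in carcinosarcomas, 1224 in carcinomas and 3350 in non-TRIM24 tumors, and without the fat-poor glands 1255 in carcinomas and 18 in non-TRIM24 tumors. With all first-batch groups in one fit carcinomas had 1170. With libraries treated as separate the non-TRIM24 tumors had 18 against glands and 3 against carcinomas, and with no batch term 2330 and 1500. Against carcinomas (main value 5) they had 2 with the smaller pseudocount, 12 with no filter and 20 without the fat-rich tumors. With no filter more genes are tested. For the other settings the cause was not tested. No paired analysis was possible because the groups share no replicate numbers. Depth is unknown, so a member listed at 0 is not shown to be absent.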
